A study of Conyza sumatrensis with 22 samples.

Results

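Untreated leaves of Conyza sumatrensis populations S and T were compared by RNA sequencing, with 3 libraries of S and 4 of T, 7 of the 22 libraries of the series. The libraries were chosen by their labels alone: leaf tissue, genotype S or T, taken before any herbicide. Both populations are described as sensitive to 2,4-D, a synthetic auxin herbicide, and the series sets them against a resistant population, R. Each genotype is a single population, so a difference between S and T is one between those populations as grown here. The labels give no plant age, place of origin or growth conditions. Whether the libraries of a population stem from different plants is not said; the p-values therefore cover only variation among these libraries, part of which may be technical. Other libraries were used beside them: leaves of S and T collected 5 h after exposure to 2,4-D (1005 g active ingredient per ha, 4 libraries each), and leaves of R before (4 libraries) and after (3 libraries) the same exposure.

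Conyza sumatrensis, Sumatran fleabane, is a polyploid annual weed of the daisy family that mostly fertilises itself. In such a species each population can become fixed for its own combination of gene variants. Inherited differences in leaf transcript level arise when a variant alters a gene's own regulatory sequence, when a regulator of many genes differs, or when a gene copy has been lost or duplicated, and growth conditions add to them. The tables identify gene models by a letter and a running number and do not pair them with gene names or sequences. What the genes encode is therefore not given, the leaf label could not be checked against marker genes, and no more than 2 genes per direction are named. In leaf tissue as a whole, fewer cells of a type and less RNA per cell cannot be told apart.

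The libraries of S and T were of like depth. Reads assigned to gene models numbered 20.05 M, 20.36 M and 22.31 M in S and 21.17 M, 19.2 M, 21.79 M and 20.87 M in T. At this depth, gene models with at least 1 count numbered 23749, 23449 and 23332 in S, against 24709, 24436, 24375 and 24813 in T. Every S library thus showed fewer expressed genes than every T library, with means of 23510 ± 215 in S (SD, n = 3) and 24583 ± 211 in T (n = 4). A 2-sided exact permutation test gave p = 0.0571, the smallest value that 3 libraries against 4 can give, and 0.0571 after adjustment over the 2 library measures so tested, the other being the contrast by coding length. Untreated R spanned the range of both populations, from 23073 to 24829.

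Population accounted for most of the variance among the libraries. The first principal component of log2 CPM (counts scaled to library size, with a prior count of 2) held 69.9% of the variance, with S at 106.7 to 117.5 and T at -87.7 to -82.5. Across genes, log2 CPM correlated at 0.963 to 0.976 between S libraries and at 0.967 to 0.98 between T libraries, but at only 0.877 to 0.893 between an S and a T library. The second component, with 9.83% of the variance, separated S library 3 from the other S libraries and T library 1 from the other T libraries. Neither library approached the other population on the first component.

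**Figure D1:**
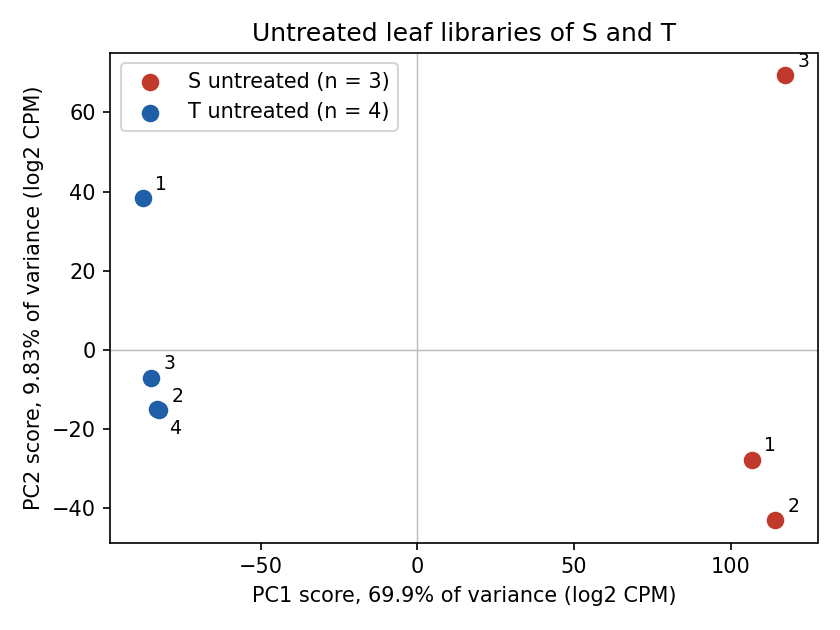
Scores of the 3 S and 4 T untreated libraries on the first 2 principal components of log2 CPM over 22627 gene models, 1 point per library, numbered by replicate. The populations lie at opposite ends of the first component (69.9% of the variance); S library 3 and T library 1 stand apart on the second (9.83%).

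Differences between the populations were found across the expressed leaf genes, in both directions. Of 22627 gene models tested, 7215 (31.9%) were called, 3399 (15.0%) higher and 3816 (16.9%) lower in S than in T (edgeR quasi-likelihood test, Benjamini-Hochberg adjusted p under 0.05). An unadjusted p under 0.05 was reached by 9455 genes (41.8%). The calls covered a wide range of sizes. At 2941 called genes, 40.8% of them, S and T differed by less than 1 on the log2 scale, meaning less than 2-fold. A difference of 4 or more, meaning at least 16-fold, was found at 1334 called genes, of which 464 were higher and 870 lower in S. Over all tested genes the median absolute difference was 0.482 on the log2 scale and the median signed difference was 0. Libraries of S and T did not overlap in CPM at 9198 tested genes (40.7%), and at 6643 of the 7215 called genes (92.1%).

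A stricter test asked whether the difference itself exceeded 2-fold. It called 2161 genes (9.55%), 841 (3.72%) higher in S and 1320 (5.83%) lower (edgeR glmTreat, adjusted p under 0.05). Among the genes tested, large differences thus more often meant a lower level in S. The 7215 called genes include 517 with 0 counts in every S library and 207 with 0 counts in every T library. Such genes passed the filter on low counts only through libraries of other groups, and their weight in this direction was not tested. The 2161 genes carried little of the leaf's RNA: they took 1.74% to 2.31% of the reads in S libraries and 1.98% to 2.45% in T libraries. All 7215 called genes together took 26.5% to 27.3% of the reads in S and 24.6% to 26.2% in T. The genes called lower in S held 5.42% to 7.47% of the reads of S libraries and 12.8% to 14.7% of those of T libraries, a description of genes chosen for that difference.

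**Figure D2:**
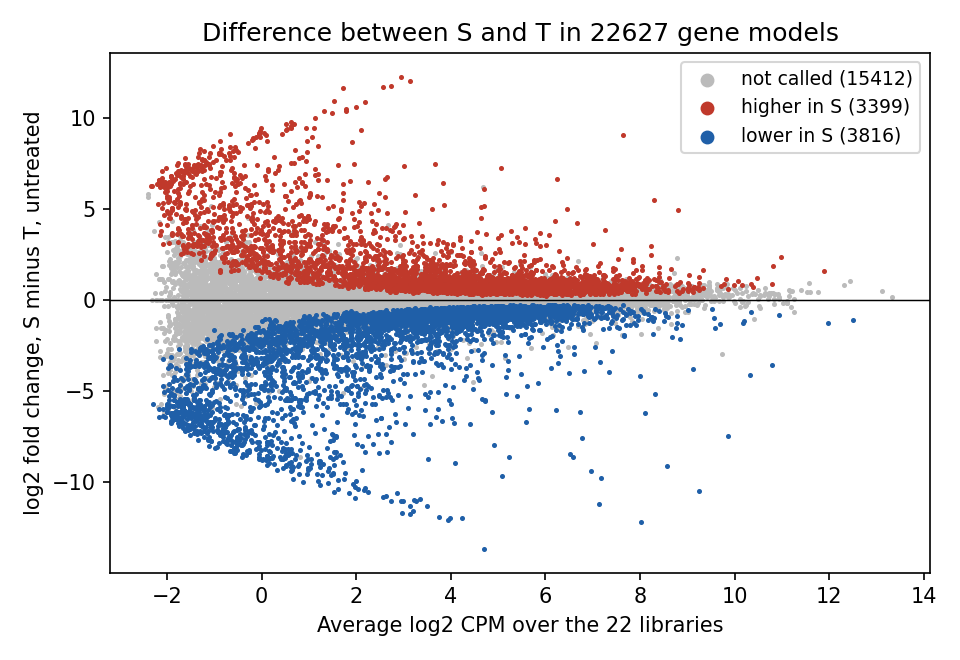
Log2 fold change of S over T in untreated leaves (vertical) against average log2 CPM over the 22 libraries (horizontal), 1 point per gene model. Red points are the 3399 genes called higher in S, blue points the 3816 called lower in S and grey points those not called; differences spread more widely at low than at high average expression.

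How often genes differed fell with their expression level. The tested genes were divided into 5 equal bins by average log2 CPM, and called genes made up 37.0% of bin 1 (the lowest), 34.9% of bin 2, 30.9% of bin 3, 29.5% of bin 4 and 27.1% of bin 5. The median absolute log2 difference fell from bin to bin as well, being 1.64 in bin 1 and 0.308 in bin 5. This ordering went with genes lower in S, which made up 22.5% of bin 1 and 10.9% of bin 5, whereas genes higher in S made up 14.6% and 16.1%. A gene in bin 1 could pass the filter on low counts through a single group where it was high. Calls and large differences there thus depend in part on that filter, and the ordering is given as a description. In the 2 upper bins more genes were higher than lower in S. Among the 17462 genes with at least 10 counts in each of the 7 libraries, 4864 (27.9%) were called, and here more were higher (2540) than lower (2324). Of the 100 genes with the highest TPM (a level per length), averaged over the populations, 19 were called, 12 higher and 7 lower in S, and 1 differed by more than 2-fold by the stricter test.

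Direction also went with coding length, the length of the gene model in bases. In the bin of shortest genes, 17.7% were higher and 11.8% lower in S, while in the bin of longest genes 12.6% were higher and 22.5% lower. The median length was 1188 bases for genes higher in S and 1480.5 bases for genes lower in S, against 1311 bases for all tested genes. For each library, the median deviation from the average of both populations was compared between the shortest and the longest genes. This contrast was 0.02, 0.15 and 0.2 in the S libraries and -0.12, -0.15, -0.15 and -0.06 in the T libraries, on the log2 scale. All S libraries lay above all T libraries, by 0.242 on average (2-sided exact permutation p = 0.0571), and S library 1 was close to 0. After a trend on coding length was subtracted within every library, 7251 genes passed, and the larger direction turned, with 3744 higher and 3507 lower in S. The median signed difference over all tested genes moved from 0 to 0.041 in this setting, and its share in the turn was not tested. The part of length in these calls beyond this correction was not tested either.

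**Figure D3:**
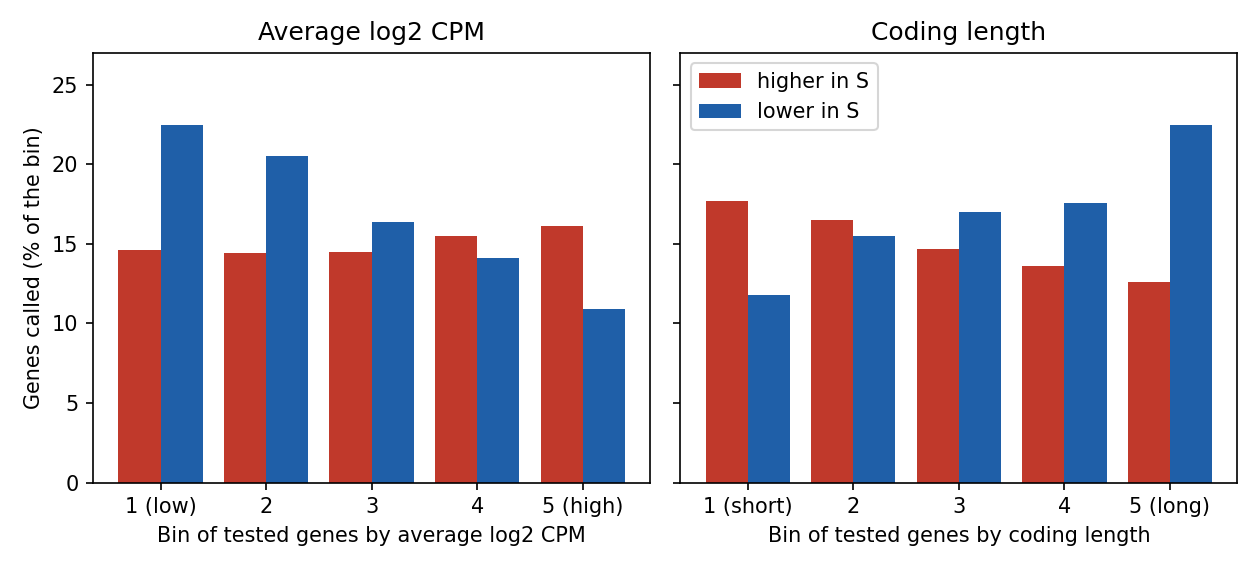
Percentage of tested genes called higher in S (red) or lower in S (blue), in 5 equal bins of average log2 CPM (left) and of coding length (right), low to high. Genes lower in S fell as expression rose, from 22.5% in bin 1 to 10.9% in bin 5, and rose with length, from 11.8% to 22.5%.

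Some genes had no reads at all in a population. Among tested genes, 697 had 0 counts in every S library, against 302 with 0 counts in every T library. Since T had 1 library more, the same count was taken over each set of 3 T libraries and came to 343 to 375. These counts depend on the filter on low counts: a gene without reads in a population passed it only through libraries of other groups, R and treated leaves included, so they are given as a description. Genes without reads in S that reached at least 1 CPM in every T library numbered 141, and those without reads in T at that level in every S library numbered 56. All of these were called, which follows largely from how they were picked. Of the 141 genes, 83 had 0 counts in all 4 treated S libraries too, and of the 56 genes, 39 had 0 counts in all 4 treated T libraries. A count of 0 limits a level to at most 3 counts in the libraries concerned and covers counting error only.

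The named genes are those with the largest folds in each direction among genes that were measured in both populations, with at least 10 counts in each of the 7 libraries, an average log2 CPM of at least 1 and libraries that do not overlap. This rule was met by 2202 genes higher and 2180 lower in S.

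Gene g36019 (coding length 1089 bases) stood at 696, 527 and 548 CPM in S, against 1.65, 1.68, 0.499 and 0.557 CPM in T. It was an abundant transcript in every S library and a scarce one in every T library. The log2 fold change was 9.07 (SE 0.48, edgeR adjusted p = 1.51e-10). Per length it reached 436 ± 121 TPM in S (SD, n = 3) and 0.959 ± 0.583 TPM in T (n = 4). Untreated R resembled T here, at 0.83 to 1.46 CPM. After 2,4-D the gene stood at 508 to 792 CPM in S and 0.459 to 1.61 CPM in T, so the contrast was also present in the treated libraries (log2 fold change 9.62, edgeR adjusted p = 3.61e-11). None of its counts were split between transcripts in the 7 libraries.

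Gene g13670 (2991 bases) stood at 125, 60 and 40.3 CPM in S, against 0.626, 0.467, 0.831 and 1.03 CPM in T. S library 1 was highest, and the lowest S library was still far above every T library. The log2 fold change was 6.65 (SE 0.60, edgeR adjusted p = 1.43e-07). In this gene R resembled S, at 97.4 to 254 CPM untreated. Treated leaves held 34.0 to 115 CPM in S and 0.0498 to 0.917 CPM in T. Gene g13670 has 1 transcript model, and its counts were estimated as split with models of other genes in 6 of the 7 libraries.

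Among genes lower in S, g17297 (1086 bases) stood at 3.77, 1.14 and 1.05 CPM in S, against 501.3, 268.5, 392.5 and 274.2 CPM in T. The populations did not overlap, and S library 1 held more than the other S libraries. The log2 fold change was -7.49 (SE 0.95, edgeR adjusted p = 7.59e-06), and -8.35 without S library 1. Untreated R held 379 to 1050 CPM. After 2,4-D, S held 31.2, 23.5, 121 and 308 CPM, and T held 1539, 2646, 2737 and 3035 CPM. The gene was thus higher in treated than in untreated libraries of both populations, and treated S library 4 alone reached the range of untreated T. The log2 difference between S and T was -4.36 in treated leaves, and the change of 3.12 from the untreated difference did not pass (SE 0.97, edgeR adjusted p = 0.199).

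Gene g2284 (1272 bases, 2 transcript models) stood at 2.71, 0.548 and 3.33 CPM in S, against 373, 4.34, 103 and 175 CPM in T. T varied widely, and T library 2 was only just above the highest S library. The log2 fold change was -6.21 (SE 1.68, edgeR adjusted p = 0.00821), and -5.41 without T library 1. Untreated R was as variable, at 6.17 to 680 CPM. Treated leaves held 2.87 to 73.9 CPM in S and 648 to 1226 CPM in T. Counts of g17297 and g2284 were split between transcript models in all 7 libraries. As g17297 has 1 transcript model, its counts were split with models of other genes.

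**Figure D4:**
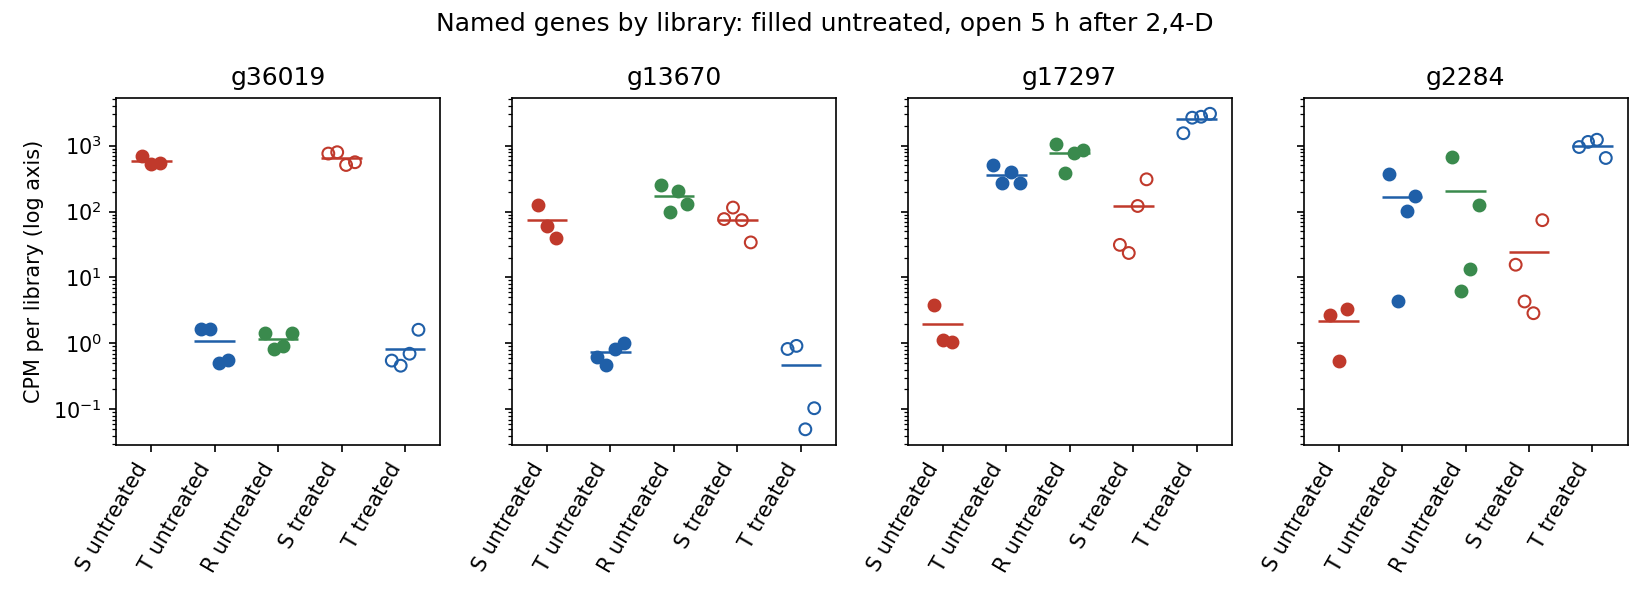
CPM per library (log axis) of the 4 named genes in untreated S, T and R (filled) and in S and T 5 h after 2,4-D (open), with a line at each group's mean. S and T libraries do not overlap in any panel for untreated leaves; R lies with T for g36019 and with S for g13670.

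The population difference was then read in treated leaves, whose libraries had no part in choosing the genes. For this, S and T were fitted separately with the 7 untreated libraries (33.9% of genes called) and with the 8 treated libraries (29.6% called), and 19850 genes were tested in both. The labels do not say whether treated leaves came from the same plants as untreated ones. Recurrence in treated leaves is therefore not shown to be recurrence in independent plants. Of 7061 genes called in untreated leaves, 6570 were tested in both fits. Of these 6570, 6097 (92.8%) had the same sign in treated leaves, a share that was not taken over all 19850 genes. In the same direction, 3831 of the 6570 (58.3%) were called again, against 29.4% of all genes called in treated leaves in either direction. Only 13 were called in the opposite direction. Genes with the larger untreated differences recurred more often. Of those that differed by less than 1 on the log2 scale, 40.6% were called again the same way, against 96.8% of the 685 that differed by 4 or more. The median difference, taken in the untreated direction, was 0.84 in treated leaves and 1.03 in the untreated leaves that chose the genes. Chosen the other way round, in treated leaves, the median was 0.94 in untreated leaves and 1.19 in treated ones. Across all 19850 genes Pearson's r between the log2 differences before and after treatment was 0.894 and Spearman's rho was 0.734, given as a description, since genes are not independent replicates.

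**Figure D5:**
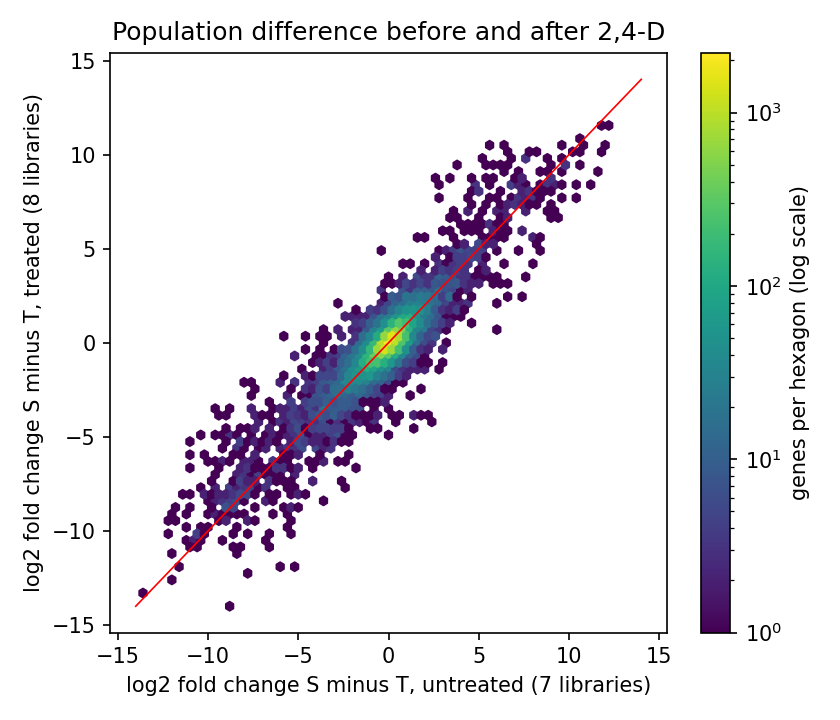
Log2 fold change of S over T in the 8 treated libraries (vertical) against that in the 7 untreated libraries (horizontal) for 19850 genes, coloured by the number of genes per hexagon, with the line of equality in red. Genes lie along the line in both directions (Pearson's r across genes 0.894).

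Few genes were called by edgeR for a population difference that itself changed with treatment. The change was called at 12 of 22627 genes (0.053%), 5 positive and 7 negative (edgeR quasi-likelihood test of the interaction, adjusted p under 0.05). Of these, 5 were called between untreated S and T and 10 between treated S and T. A larger number, 365, was called by DESeq2, and the count ranged from 2 to 28 when 1 library was left out. It was 24 and 5 without untreated S libraries 1 and 2, and 5, 4 and 7 without untreated T libraries 2, 3 and 4. It was 28 and 20 without treated S libraries 2 and 3, and 2 without treated T library 3. The test did not pair treated with untreated libraries, and whether they share plants is not said. With 3 or 4 libraries per group, a gene that was not called is not shown to have kept its difference.

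Where S and T differed, population R more often lay nearer to T. Over tested genes the median absolute difference in mean log2 CPM of untreated leaves was 0.464 between S and T, 0.466 between R and S and 0.316 between R and T. At 5104 of the 7215 genes called between S and T (70.7%) the mean of R lay nearer to T than to S. The share was 69.6% for genes higher in S and 71.8% for genes lower in S. No such share was taken over all tested genes, where R also lay closer to T by the median difference. The 70.7% is therefore not shown to be particular to the called genes. R lay beyond T at 29.8% of the called genes, between the populations but nearer to T at 40.9%, between them but nearer to S at 21.3% and beyond S at 7.91%. At the remaining genes R was nearer to S, as for g13670. In which population a level had changed was not tested. The contrast between S and T did not include R. The filter on low counts, the normalisation and the shared estimate of the spread did use R libraries.

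The spread between libraries was wider in S than in T with all libraries included. The median SD of a gene's log2 CPM was 0.323 between S libraries (n = 3) and 0.232 between T libraries (n = 4), with 0.325 in untreated R (n = 4). The SD was larger in S than in T at 14623 genes (64.6%). It exceeded 1 at 1760 genes in S (7.78%) and at 1082 genes in T (4.78%). The biological coefficient of variation, fitted in each group alone, was 0.313 in S and 0.219 in T. Single libraries weighed on both values. Without S library 1, 2 or 3 the median SD in S was 0.272, 0.275 or 0.21 (n = 2 each). Without S library 3 the median SD in S lay below the 0.232 of all T libraries. An SD over 2 libraries tends to come out smaller than one over 4. These values therefore cannot show whether the direction turned. Without T library 1 the median SD in T was 0.182, and without any other T library 0.224 to 0.23 (n = 3 each).

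Genes that respond to 2,4-D were called between untreated S and T about as often as other genes. Responsive genes were taken from R, which shares no library with the comparison (its untreated and treated libraries alone, 8.03% of genes called). Of 1066 genes that rose in R after 2,4-D, 31.3% were called between untreated S and T, and of 366 that fell in R, 31.4%, against 32.4% of all 19662 genes tested in both fits. Both shares lie near the background. Among the 6369 genes called between S and T and tested in both fits, 334 (5.24%) rose and 115 (1.81%) fell in R. By direction, 14.1% of the risen genes were higher and 17.3% lower in S, against 15.2% and 17.1% of all. Of the fallen genes, 18.9% were higher and 12.6% lower in S.

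Transcript usage, the split of a gene's reads among its transcript models, differed at 20 of 1187 genes tested (1.68%, edgeR diffSpliceDGE with Simes gene-level p, adjusted p under 0.05; 137 had an unadjusted p under 0.05). In 12 of the 20 the transcript model with the largest share of TPM was not the same in S and T, against 185 of the 1164 genes with reads in all 7 libraries. The largest shift in share per gene ranged from 4.37 to 100 percentage points with a median of 52.2, against a median of 8.13 over those 1164 genes. Shares of S and T libraries did not overlap in 18 of the 20, against 229 of the 1164. The shares were used by the test, so these values describe the called genes only. Total level was called as different at 8 of the 20 and at 345 of the 1164. Counts were split by estimate in 19 of the 20 and in 1133 of the 1164, so usage in nearly all tested genes rests on the assignment of reads between overlapping models. With only the 7 libraries in the model 32 genes were called.

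Reads that fit several transcript models touched many of the genes. Genes with split counts in at least 1 of the 7 libraries were called at 34.6% (2745 of 7923), and genes with whole counts throughout at 30.4% (4470 of 14704). Genes with more than 1 transcript model were called about as often (32.2%) as genes with 1 (31.9%).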

How the data were processed

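The deposited table of each library lists transcript models; estimated counts (reads assigned to a model, not always whole), TPM and model lengths stand in it, per the file headers. Trimmomatic and Salmon are named as tools, per the submitters' processing notes. Their versions, the reference and its build, and any strand setting: not given in the sources used here. Deposited estimated counts of 47916 transcript models were summed to 45437 gene models and rounded; TPM was used as deposited, summed per gene. filterByExpr left 22627 genes. Counts were TMM-normalised and tested with edgeR 4.0.16 (R 4.3.3), robust quasi-likelihood, 1 mean for each of 6 groups over all 22 libraries, with Benjamini-Hochberg adjustment over all tested genes. SE is the absolute log2 fold change over the square root of F. Alternatives included DESeq2 1.42.0. Scripts were tested on simulated data; there the gene-level F test of transcript usage made too many false calls, so Simes p-values are used. Members, lists and tests were chosen with earlier results of these data known. Named genes follow the rule stated in the text. A count was taken as whole within 5e-04.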

Additional observations from a re-analysis of the deposited data

Results flagged for a closer look

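The difference between S and T changed between untreated and treated leaves at 12 genes by the test of the difference itself. No library stood apart from the others of its group by the gap test (Dixon's criterion at 95%) in 23 groups of 4 libraries checked, which covered the named genes and the library measures. With 4 values in a group this test flags only a very large gap, so an outlying library could have been missed. Untreated S, with 3 libraries, was too small for this test, and principal component scores were not among the values checked.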

How the results depend on the processing

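The count of 7215 genes ranged from 5619 to 6710 when 1 untreated library was left out, was 8111 with DESeq2, 7061 with only the 7 libraries in the model, and 4381 where only genes with whole counts were tested, which are fewer genes. Beyond 2-fold, the count of 2161 ranged from 1824 to 2000 without 1 library, and recurrence in treated leaves (3831) from 3229 to 3978. The number of genes chosen for that recurrence changed in these settings too. Transcript usage (20 genes) ranged from 15 to 22 without 1 library, and was 32 with only the 7 libraries and 120 with the gene-level F test. The 12 genes whose difference changed ranged from 2 to 28 without 1 library, and were 365 with DESeq2 and 3, all negative, with the replicate block; the cause was not tested. Replicate numbers were not used to pair the samples in the main fit. Deviations of same-numbered S and T libraries correlated at 0.0759, 0.15 and -0.0701. S libraries 1 and 2 correlated best with the T library of their own number, and S library 3 did not. On the third principal component (7.44% of the variance) S library 1 (-49.8) and T library 1 (-47.7) lay apart from the other libraries (2.9 to 30.1). On that component S libraries 2 and 3 lay nearest to T libraries of another number. With 3 correlations and these scores, whether the numbers mark a shared batch cannot be told. With the replicate block 6656 genes were called, 2014 beyond 2-fold and 18 for transcript usage, and the log2 fold change of g2284 was -5.34. In the separate fits with the block, 2834 of 4015 genes chosen in untreated leaves were called again in treated leaves. Without the block these were 3831 of 6570. Upper-quartile factors gave 3119 higher and 4070 lower and moved the median of all genes by -0.036. Treated libraries were left out in turn by a choice made after seeing the data, as was the F test. The named genes kept direction and call in 61 of 61 values, which follows largely from how they were picked in these libraries. Of the named genes, only g36019 could be tested where only genes with whole counts were kept. At 19.2 M to 22.3 M reads, depth limits genes near 0 counts, whose fitted folds depend on the prior count.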

Other observations

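The running numbers of the gene models showed 2 patterns, given as values without a test; what the numbers follow is not stated in the sources used here. When a gene was higher in S, the gene with the next number was higher in S in 17.4% of cases, against 15.0% over all such neighbours, and for genes lower in S the values were 19.3% and 15.9%. For genes higher in S, the values were 16.6% against 15.2% at a distance of 2 numbers, 14.3% against 14.8% at 5, 14.4% against 15.0% at 10 and 14.6% against 14.8% at 50. For genes lower in S they were 18.2% against 16.2% at 2, 16.2% against 16.3% at 5, 17.1% against 16.4% at 10 and 18.6% against 16.5% at 50, so for this direction the excess was not limited to adjacent numbers. Adjacent genes were called in the same direction in 888 pairs and in opposite directions in 661, and genes 50 numbers apart in 738 and 642 pairs.

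The numbers also ran through stretches poor in expressed genes. In windows of 500 numbers, the share of models that passed the filter on low counts ranged from 5.2% to 78.8%. Genes from the 23 windows with a share under 25% were called at 36.3% (563 of 1552), and those from the 9 windows over 75% at 29.6% (1022 of 3450). Median expression differed with it, at 3.02 and 4.09 log2 CPM. Among genes of the 2 upper expression bins alone, 28.9% and 29.1% were called, so the contrast was not seen at high expression. The window limits were chosen after seeing the data.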
